A study of Oryzias latipes with 48 samples.

Results

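Isotocin and vasotocin are the fish counterparts of the mammalian hormones oxytocin and vasopressin. Each is cut from a precursor that also holds a neurophysin, the carrier protein of the hormone. Neurons of the preoptic area and hypothalamus make the precursors and carry the hormones to the posterior pituitary. In fish both peptides are known for roles in water and salt balance, reproduction and social behaviour, and they act on receptors coupled to G proteins.

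The genes were taken from the deposited expression table of medaka (Oryzias latipes), a small freshwater fish that breeds seasonally. The rows chosen were the isotocin row LOC101160739 and every row whose description holds the word isotocin or vasotocin. This gave 4 of 26167 rows. They are the isotocin precursor (LOC101160739), 2 arg8-vasotocin receptor-like rows (v1ar1 and v1ar2) and an isotocin receptor-like row (itr1). No precursor row is described as vasotocin. The row oxt is described in the files as an oxytocin/neurophysin I prepropeptide, whereas RefSeq's gene table (assembly ASM223467v1) lists vasotocin and vt as its synonyms. It is called the oxt row here, and its identity as the vasotocin precursor rests on those synonyms. A further 4 rows carry receptor names of the family without either word. They are avpr2 (a vasopressin V2 receptor), oxtr (an oxytocin receptor with the RefSeq synonym itr2), nft-vtr (V1b receptor-like) and LOC101170270 (V2 receptor-like). These 5 rows lie outside the rule and are given beside its 4 members, which makes 9 rows in all. In the same gene table isotocin and oxt lie on the same chromosome with 4 genes between them.

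The tissue was a block with the ventral telencephalon, hypothalamus and pituitary of fish kept outdoors under natural conditions. Sampling took place at both equinoxes (spring and autumn) and both solstices (summer and winter), each at clock hours 2, 6, 10, 14, 18 and 22 with 2 libraries, hence 48 libraries and 12 per season. The labels name no treatment or genotype that would set fish of different seasons apart. How many fish a library holds, their sex and age, and the year or batch behind a season are details not given in the sources used here. Season and batch therefore cannot be told apart. Since no label says that libraries are of different fish, a p-value covers library-to-library spread, which may be technical.

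The unit is FPKM, which scales fragment numbers to the length of the transcript and the size of the library, and each season is summarised by the mean ± SD of its libraries (n = 12). Differences are on the log2(FPKM + 1) scale, and folds are taken from that scale. It understates changes of rows at a few FPKM or less, as all receptor rows here are. A gene was called when its limma p, Benjamini-Hochberg adjusted over 16622 genes with a mean of at least 1 FPKM, was below 0.05. FPKM sums ran from 314605 to 359311 per library, depth is unknown, and libraries of the same group correlated at r = 0.977 to 0.988 over genes. A set of 3 spring libraries (2 h replicate 1, 18 h replicate 1 and 22 h replicate 2) stands apart from the other spring libraries on the second principal component. Their values there were at least 21.07, against at most 13.87 in the other spring libraries, while a summer library reached 19.64. Of the 9 rows, 6 passed the filter, 3 of them members by the rule (LOC101160739, v1ar1 and v1ar2). Pituitary markers summed to 3174 to 7659 FPKM and neuron markers to 2477 to 3723 FPKM over all libraries, and no marker of either list was at 0 in every library.

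The isotocin precursor was the most abundant of the 9 rows in every season. It averaged 162 ± 41.1 FPKM in spring, 284 ± 49.4 FPKM in summer, 334 ± 49.2 FPKM in autumn and 244 ± 21.2 FPKM in winter. The lowest, median and highest library had 96.9, 156 and 237 FPKM in spring. In summer they had 203, 281 and 363 FPKM. In autumn they had 269, 319 and 420 FPKM, and in winter 207, 241 and 289 FPKM. Spring stood lowest and autumn highest, and the order spring, winter, summer, autumn held between every pair of neighbours at the called threshold, with small steps from winter to summer and from summer to autumn that lost their calls under another scaling.

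The widest step was spring against autumn. Isotocin was 2.1-fold lower in spring than in autumn (log2 difference −1.07, limma adjusted p = 6.5e-12). The highest spring library, with 237 FPKM, lay below the lowest autumn library, with 269 FPKM. It follows that at 6 of 6 clock hours both spring libraries were below both autumn libraries. Over all tested genes 72.4% were called in this comparison, 45.1% lower in spring, and 12.2% had all spring libraries below all autumn libraries. Isotocin was also 1.78-fold lower in spring than in summer (log2 difference −0.83, adjusted p = 1e-09), where 73.8% of genes were called, and 1.54-fold higher in winter than in spring (0.62, adjusted p = 1.3e-06), where 49.4% were called. It was 1.36-fold higher in autumn than in winter (0.44, adjusted p = 3.9e-05), where 71.7% of genes were called. In whole tissue, fewer isotocin cells and less isotocin RNA per cell cannot be told apart.

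Summer and winter isotocin levels lay closer together. Summer libraries ran from 203 to 363 FPKM and winter libraries from 207 to 289 FPKM, so the groups overlapped, and 5 of 12 summer libraries were above every winter library. The log2 difference, summer minus winter, was 0.21 (limma adjusted p = 0.032), in a comparison with 74.9% of genes called. It missed the threshold without any of 8 libraries (summer 6 h replicate 2, 10 h replicate 1, 14 h replicate 2, 18 h replicate 2 and 22 h replicate 2, winter 2 h replicate 2, 10 h replicate 1 and 22 h replicate 2), with adjusted p up to 0.087, and with median-ratio scaling (0.15, adjusted p = 0.11). Isotocin was lower in summer than in autumn by a small margin (log2 difference −0.24, adjusted p = 0.024, with 43.6% of genes called). This call was lost without any of 5 libraries (summer 10 h replicate 2, 18 h replicate 1 and 22 h replicate 1, autumn 6 h replicate 2 and 10 h replicate 2), with differences between −0.29 and −0.19 over all libraries left out, and with quantile normalization (−0.14, adjusted p = 0.18).

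**Figure D1:**
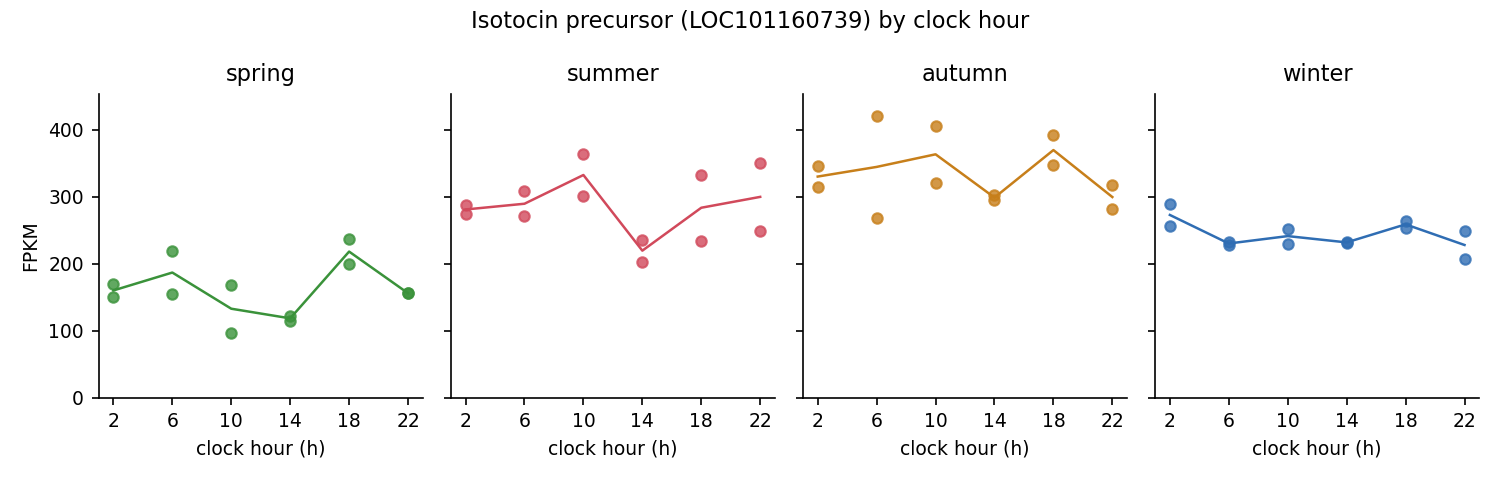
Isotocin precursor level (FPKM, y axis) by clock hour (h, x axis) in the 4 seasons. Points are libraries, 2 per hour, and lines join their means. All 12 spring libraries, at most 237 FPKM, lie below the 12 autumn libraries, at least 269 FPKM.

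Neuron markers, like isotocin, were lower in spring than in summer and autumn. Their summed level was 2477 to 2974 FPKM in spring, 3099 to 3723 FPKM in summer, 3137 to 3387 FPKM in autumn and 2563 to 2971 FPKM in winter. Of 25 tested neuron markers, 2 rose and 20 fell in spring relative to autumn, with a median log2 difference of −0.38 beside −0.08 over all tested genes. Taken relative to the mean of those markers, isotocin was still lower in spring than in autumn (log2 difference −0.72, adjusted p = 3.4e-08) and in spring than in summer (−0.45, adjusted p = 4.8e-05). The autumn minus winter difference of isotocin was 0.21 on that scale (adjusted p = 0.038), against 0.44 as deposited. The summer against winter difference on that scale was −0.06 (adjusted p = 0.56), with the sign turned. The median of all tested genes on that scale was −0.217 in summer minus winter and 0.262 in spring minus autumn. Pituitary markers summed to 4105 to 7659 FPKM in spring, against 4011 to 6286 FPKM in autumn, and of 15 tested, 7 were higher and 6 lower in spring. Myelin markers summed to 1081 to 1567 FPKM in spring, against 1915 to 2809 FPKM in autumn, with 0 higher and 7 lower of 10 tested. Red blood cell markers summed to 219 to 535 FPKM in spring, against 929 to 1791 FPKM in autumn, with 2 higher and 6 lower of 8 tested and a median log2 difference of −0.94. Radial glia and astrocyte markers summed to 1314 to 1634 FPKM in spring, against 1672 to 2147 FPKM in autumn, with 5 higher and 6 lower of 12 tested. The part of these cell types in the isotocin difference was not tested.

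No daily curve of isotocin was called. The fitted 24 h cosine had an amplitude, from the mean to the peak on the log2 scale, of 0.21 in spring, 0.12 in summer, 0.04 in autumn and 0.04 in winter, with an SE of 0.10 in each season, and adjusted p from 0.39 to 0.97. Over all tested genes 2.59% were called in spring, 13.6% in summer, 16.1% in autumn and 1.53% in winter. An F test over the 6 clock hours, which fits no curve, called isotocin in spring (adjusted p = 0.048), where 6.28% of genes were called by that test. That call lay close to the threshold and was not checked with libraries left out. The 2 spring libraries had 97 and 169 FPKM at 10 h, 122 and 115 FPKM at 14 h, and 200 and 237 FPKM at 18 h. The lowest and the highest hour of the spring profile were therefore neighbours, a shape that a 24 h cosine does not follow. Replicate 1 of 18 h, the highest hour, is among the spring libraries that stand apart.

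The oxt row, listed by RefSeq under the synonym vasotocin, followed another seasonal order. It averaged 59.3 ± 14.9 FPKM in spring, 90.6 ± 12.8 FPKM in summer, 68.3 ± 8.29 FPKM in autumn and 84.8 ± 24.5 FPKM in winter. The lowest, median and highest library had 40.5, 57.4 and 88.8 FPKM in spring. In summer they had 61.8, 93.6 and 104 FPKM. In autumn they had 56.8, 67.8 and 80.2 FPKM, and in winter 55.8, 75.3 and 134 FPKM. All pairs of seasons overlapped, and the winter libraries were spread most widely.

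Like isotocin, oxt was lowest in spring, but its next lowest season was autumn, where isotocin was highest. It was 1.55-fold lower in spring than in summer (log2 difference −0.63, limma adjusted p = 6.4e-07) and higher in winter than in spring (0.50, adjusted p = 7.5e-05). It was higher in summer than in autumn (0.40, adjusted p = 0.00099) and lower in autumn than in winter (−0.27, adjusted p = 0.012). Both of these signs are opposite to those of isotocin. Summer and winter differed by 0.13 (adjusted p = 0.2), which was not called. The difference between spring and autumn, −0.23, was called (adjusted p = 0.027) but not without any of 5 libraries (spring 6 h replicate 1, 10 h replicate 1 and 18 h replicate 2, autumn 6 h replicate 2 and 10 h replicate 2), where adjusted p reached 0.09. It was also not called with median-ratio scaling (−0.13, adjusted p = 0.2), and relative to the neuron markers it was 0.11 (adjusted p = 0.27), with the sign turned. On the scale of the neuron markers the median of all tested genes was 0.262 in spring minus autumn.

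In winter oxt had a daily curve, with its peak near midday. The 2 winter libraries had 73.9 and 58.0 FPKM at 2 h, 76.7 and 70.9 FPKM at 6 h, and 96.1 and 113 FPKM at 10 h. At 14 h they had 134 and 113 FPKM, at 18 h 55.8 and 89.9 FPKM, and at 22 h 67.0 and 69.5 FPKM. The 4 libraries of 10 h and 14 h were above the other winter libraries. The same 4 libraries also had the highest mean of the neuron markers among the winter libraries. Relative to the mean of all libraries it was −0.02 to 0.01 on the log2 scale, against −0.20 to −0.08 in the others. The part of the neuron markers in the oxt curve was not tested. The cosine had an amplitude of 0.43 (SE 0.10) on the log2 scale, which is 1.82-fold from trough to peak, with the peak at 12.3 h (limma adjusted p = 0.037, with 1.53% of all tested genes called in winter). Of the 6 tested rows it was the only daily curve called in any season.

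The winter oxt curve rested on few libraries. Left out in turn, 7 winter libraries (2 h replicate 2, both at 10 h, both at 14 h and both at 22 h) each ended the call, with adjusted p of 0.057 to 0.12 and amplitudes between 0.37 and 0.46. With no filter on low values the adjusted p was 0.055. Over the alternatives the amplitude was as low as 0.34. In the other seasons the amplitude of oxt was 0.23 in spring, 0.16 in summer and 0.13 in autumn, with adjusted p of 0.3, 0.5 and 0.63. A direct test that the curves of all seasons are equal was called (adjusted p = 0.021, with 21.5% of genes called). The curves of summer and winter differed (adjusted p = 0.023, 9.75% of genes called), as did those of winter and spring (adjusted p = 0.02, 5.21% of genes called). Fitted peaks were at 3.1 h in spring and 3.7 h in summer. Each season covers 1 cycle, so a daily rhythm cannot be told apart from a drift over the sampling.

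**Figure D2:**
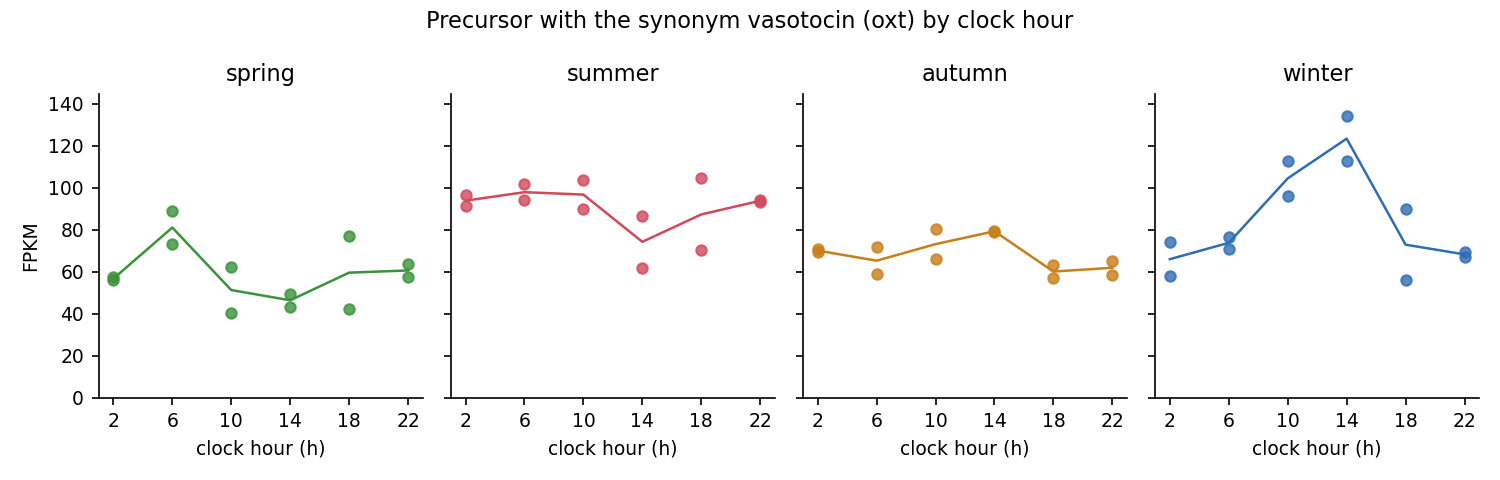
Level of the oxt row (FPKM, y axis) by clock hour (h, x axis) in the 4 seasons. Points are libraries, 2 per hour, and lines join their means. The winter libraries of 10 h and 14 h, between 96.1 and 134 FPKM, lie above the other winter libraries.

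Setting the precursors against each other within each library gives a ratio that is free of the library's scaling. The oxt to isotocin ratio of FPKM values averaged 0.375 ± 0.0726 in spring, 0.322 ± 0.0342 in summer, 0.207 ± 0.0339 in autumn and 0.351 ± 0.110 in winter (SD, n = 12). Autumn stood lowest. On the log2(FPKM + 1) scale the ratio was 0.84 higher in spring than in autumn and 0.64 higher in summer than in autumn. Autumn minus winter gave −0.71. Each of these 3 differences had an adjusted p = 6e-05 in a two-sided permutation test with 100000 resamples, adjusted over the 6 season pairs. Summer minus winter was −0.07 (permutation adjusted p = 0.583), winter minus spring was −0.13 (0.535) and spring minus summer was 0.20 (0.116). Without the spring library of 18 h replicate 2, whose ratio was 0.178, spring minus summer became 0.29 (permutation adjusted p = 0.00022).

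Over the clock hours of winter, the mean ratio was highest at 14 h and lowest at 2 h, a difference that was not tested. The 2 winter libraries of 14 h had ratios of 0.576 and 0.488, against 0.256 and 0.226 at 2 h. Isotocin had 233 and 231 FPKM at 14 h, against 289 and 257 FPKM at 2 h. The oxt row had 134 and 113 FPKM at 14 h, against 73.9 and 58.0 FPKM at 2 h. The high ratios at 14 h thus went with higher oxt values and lower isotocin values than at 2 h. For isotocin 2 h was the highest winter hour, with a mean of 273 FPKM. Its mean at 14 h, 232 FPKM, was near those at 6 h and 22 h, 230 and 228 FPKM. The F test over clock hours did not call isotocin in winter (limma adjusted p = 0.88).

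**Figure D3:**
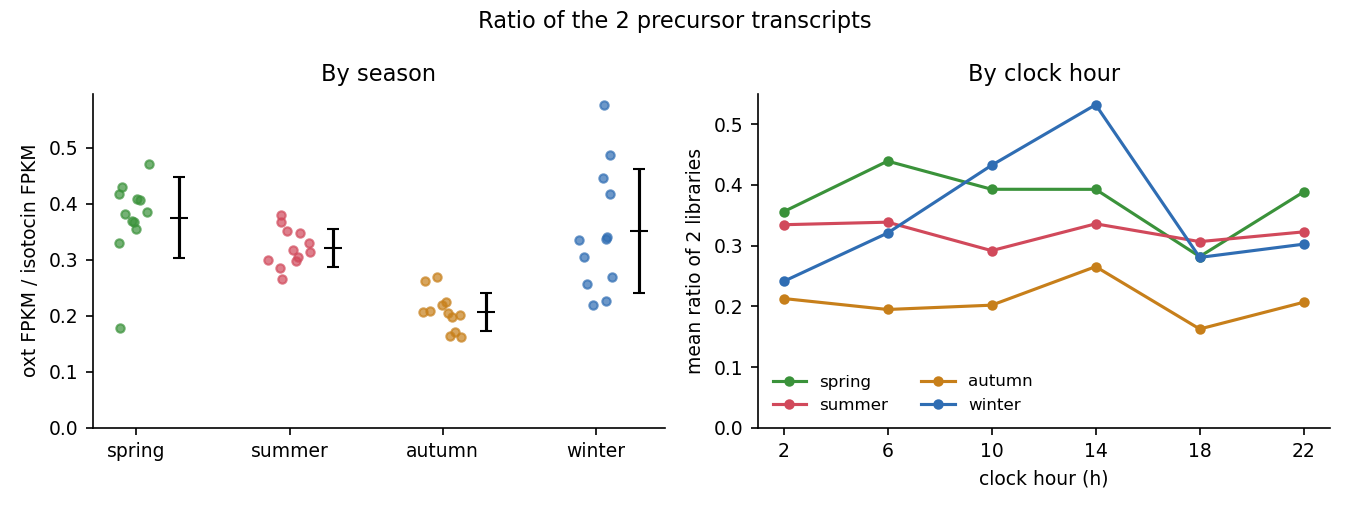
Ratio of oxt FPKM to isotocin FPKM. Left, libraries of each season (points) with mean and SD (bars, n = 12). Right, the mean of the 2 libraries at each clock hour (h) in each season. Autumn is lowest, with a mean of 0.207, and the winter libraries reach 0.576 at 14 h.

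Across the 12 libraries of a season, the correlation of the precursors passed the threshold in summer. Pearson's r was 0.804 (permutation adjusted p = 0.00136 over 4 seasons) and Spearman's rho was 0.72 (permutation adjusted p = 0.04). Without the 2 libraries farthest from the isotocin median r was 0.638 (permutation p = 0.0331, not adjusted). In spring r was 0.528 (permutation adjusted p = 0.157) and rho was 0.441 (permutation adjusted p = 0.306), with r = 0.878 without the 2 farthest libraries (permutation p = 0.00147, not adjusted). In autumn r was 0.263 (permutation adjusted p = 0.541) and rho 0.21 (0.561). In winter both were below 0, with r of −0.182 (permutation adjusted p = 0.573) and rho of −0.189 (0.561). Without the 2 farthest libraries r was −0.0602 in autumn (permutation p = 0.869, not adjusted) and −0.378 in winter (permutation p = 0.273, not adjusted). Both values of a point come from the same library and share its clock hour, its depth and its cut of tissue. The permutations moved libraries freely across clock hours. In summer both precursors had their lowest mean at 14 h, isotocin with 220 FPKM and oxt with 74.2 FPKM. An effect of the hour that both share therefore enters r and its permutation p.

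By profile over the 24 group means, the genes most like isotocin were ppil1, a peptidylprolyl isomerase (r = 0.917), susd5, a sushi domain protein (0.915), and LOC101174141, a glucose-fructose oxidoreductase domain protein (0.888). A tubulin alpha-1B-like row (LOC101167538, 0.887) and LOC101156633, which encodes the transcription factor MafG (0.878), came next. Among the 16622 tested genes the oxt row ranked 5070 in likeness to isotocin (r = 0.468), while isotocin ranked 707 in likeness to oxt. Most like oxt were LOC101168692, the precursor of the opioid-like peptide nociceptin (r = 0.795), lhx6, a LIM homeobox transcription factor (0.784), and LOC101168903, a calmodulin-dependent phosphodiesterase (0.782). They were followed by the zinc finger gene znf511 (0.756) and by gad1, which makes the transmitter GABA (0.739). These correlations describe 24 means of 2 libraries that share seasons, and neighbouring tubulin copies may share reads.

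The vasotocin receptors v1ar1 and v1ar2 are of the V1a type, which in vertebrates acts through Gq and phospholipase C. They were expressed at similar low levels but took different seasonal courses. The v1ar1 row covers 3 transcripts and the v1ar2 row 2, with 1 unannotated transcript in each. The share of that transcript in the FPKM is unknown. v1ar2 averaged 3.29 ± 0.699 FPKM in spring, 3.65 ± 0.479 FPKM in summer, 3.08 ± 0.571 FPKM in autumn and 2.53 ± 0.273 FPKM in winter. v1ar1 averaged 3.41 ± 0.579 FPKM in spring, 2.77 ± 0.415 FPKM in summer, 2.55 ± 0.396 FPKM in autumn and 3.32 ± 0.495 FPKM in winter. Thus v1ar2 was lowest in winter, and v1ar1 was lowest in autumn.

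Summer and winter separated v1ar2 fully. The lowest, median and highest summer library had 2.94, 3.49 and 4.56 FPKM, against 2.07, 2.56 and 2.88 FPKM in winter. No summer library overlapped with a winter library, which 13.8% of tested genes showed in the same direction. On the FPKM + 1 scale, which understates the change at this low level, v1ar2 was 1.31-fold higher in summer than in winter (log2 difference 0.39, limma adjusted p = 2.7e-07). It was also higher in autumn than in winter (0.20, adjusted p = 0.0021) and in summer than in autumn (0.20, adjusted p = 0.0054), and lower in winter than in spring (−0.27, adjusted p = 0.00023). Relative to the neuron markers, which summed to 3099 to 3723 FPKM in summer, against 2563 to 2971 FPKM in winter, the summer minus winter difference of v1ar2 was 0.13 (adjusted p = 0.055) and that of autumn minus winter was −0.03 (adjusted p = 0.62). The medians of all tested genes on that scale were −0.217 and −0.175 in the same order.

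The difference of v1ar2 between spring and summer was small (−0.12, limma adjusted p = 0.043) and lost its call without any of 14 libraries (spring 2 h and 10 h both replicates, 6 h replicate 2, 14 h replicate 1, 18 h replicate 1 and 22 h replicate 2, summer 2 h replicate 2, 6 h replicate 1, 10 h replicate 1, 14 h replicate 2, 18 h replicate 2 and 22 h replicate 1). The difference lay between −0.16 and −0.09 over all libraries left out. Relative to the neuron markers it turned to 0.25 (adjusted p = 0.00049). The median of all tested genes on that scale was 0.308, with 13417 of 16622 genes called, 85.2% of them higher. Between spring and autumn v1ar2 was not called (0.07, adjusted p = 0.26). With median-ratio scaling that difference was 0.14 (adjusted p = 0.019). Relative to the neuron markers it was 0.42 (adjusted p = 5.7e-07), beside a median of 0.262 over all tested genes.

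v1ar1 was higher in spring than in autumn by 1.24-fold on the FPKM + 1 scale (log2 difference 0.31, limma adjusted p = 2.9e-05). The lowest, median and highest library had 2.77, 3.15 and 4.62 FPKM in spring, against 2.00, 2.47 and 3.19 FPKM in autumn, so the groups overlapped. It was higher in spring than in summer (0.22, adjusted p = 0.0012), lower in summer than in winter (−0.20, adjusted p = 0.0037) and lower in autumn than in winter (−0.28, adjusted p = 9.7e-05). Summer minus autumn was 0.09 (adjusted p = 0.23) and winter minus spring −0.03 (adjusted p = 0.73), and neither was called. Set against the neuron markers, the v1ar1 difference was 0.65 in spring minus autumn (adjusted p = 9.7e-11), 0.60 in spring minus summer (adjusted p = 5.4e-10), −0.46 in summer minus winter (adjusted p = 9.2e-08) and −0.52 in autumn minus winter (adjusted p = 1.4e-08). All tested genes shifted the same way on that scale, with medians of 0.262, 0.308, −0.217 and −0.175 in the same order. The summed level of microglia and macrophage markers, in which abundant rows weigh most, was 688 to 1051 FPKM in spring, 366 to 577 FPKM in summer, 331 to 442 FPKM in autumn and 617 to 896 FPKM in winter. Of 13 tested, 5 were higher and 2 lower in spring against autumn, 7 were higher and 3 lower in summer against winter, and 8 were higher and 4 lower in autumn against winter. Over all tested genes 27.3% were higher and 45.1% lower in spring against autumn, and 42% and 32.9% in summer against winter. In autumn against winter the shares were 42.4% and 29.3%. Most called members were thus lower in winter than in summer or autumn, as most called genes at large were. The sum went the other way, and the part of these markers in the v1ar1 differences was not tested. In the reference gene table v1ar1 overlaps the non-coding row LOC110017624, which averaged 0.954, 0.788, 0.754 and 0.963 FPKM in spring, summer, autumn and winter. The libraries are strand-specific per the labels, but whether the counting used strand has not been stated in the sources used here, so reads of both rows cannot be told apart.

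**Figure D4:**
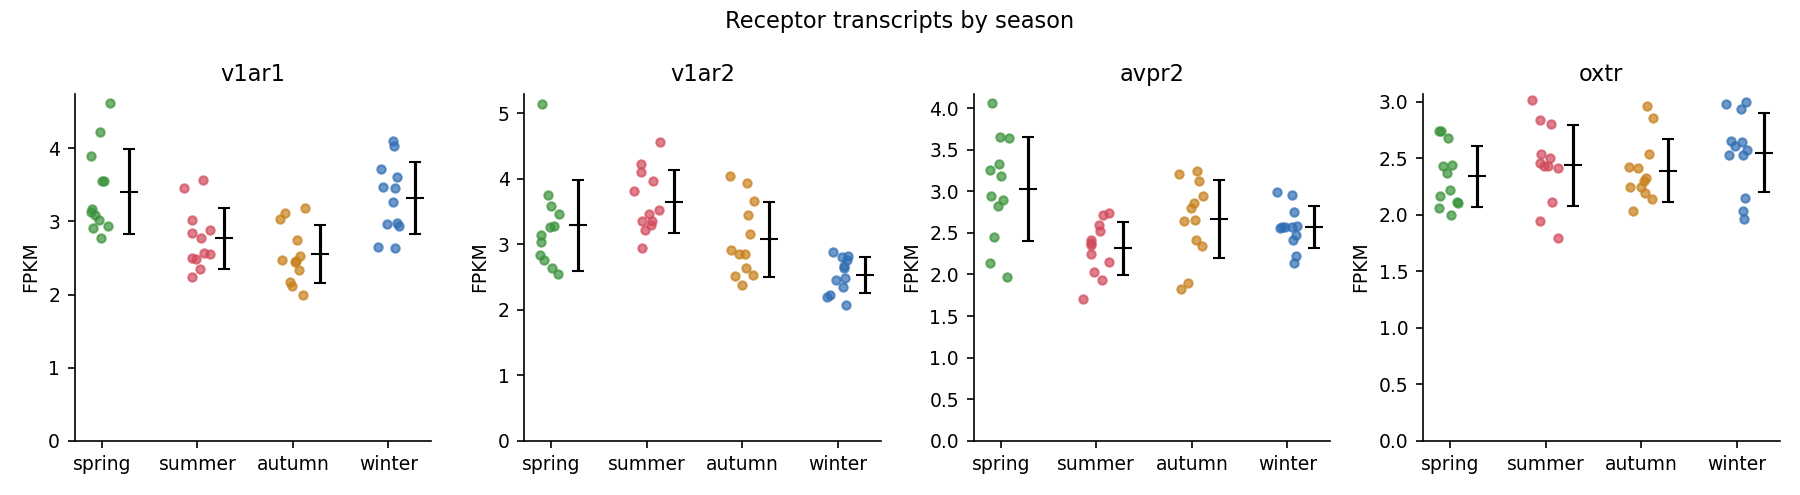
Levels of 4 receptor rows (FPKM, y axis) in the libraries of each season (points), with mean and SD (bars, n = 12). v1ar2 is lowest in winter at 2.53 FPKM, and v1ar1 is lowest in autumn at 2.55 FPKM.

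The isotocin receptor-like row itr1, the only receptor that the rule found for isotocin, was close to 0. It averaged 0.154 ± 0.109 FPKM in spring, 0.139 ± 0.149 FPKM in summer, 0.158 ± 0.0698 FPKM in autumn and 0.132 ± 0.0673 FPKM in winter, with at most 0.52 FPKM in any library and 1 spring library listed at 0. It did not reach the filter and had no test there. With no filter it was not called between any seasons (limma adjusted p = 0.92 over any season).

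The other oxytocin-type receptor, oxtr, listed under the synonym itr2, was higher than itr1, and its season means lay close together. It averaged 2.34 ± 0.271 FPKM in spring, 2.44 ± 0.358 FPKM in summer, 2.39 ± 0.278 FPKM in autumn and 2.55 ± 0.348 FPKM in winter. No season pair was called, nor was any season difference (limma adjusted p = 0.43), whereas 90.9% of tested genes were called in that test. With quantile normalization oxtr was called in summer minus winter (−0.12, adjusted p = 0.044) and in autumn minus winter (−0.12, adjusted p = 0.039). All 3 tested members by the rule and 5 of the 6 tested rows were called, so a call between any seasons was the usual outcome. Relative to the neuron markers, oxtr was called in 4 pairs, among them spring minus autumn (0.32, adjusted p = 9.2e-06), where it was −0.02 as deposited, and summer minus winter (−0.31, adjusted p = 1.6e-05). Genes at large moved the same way on that scale. In spring minus autumn their median was 0.262, with 12900 of 16622 genes called, 83.8% of them higher. In summer minus winter it was −0.217, with 12821 genes called, 24% of them higher.

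Among receptors of the V2 type, which act through Gs and cyclic AMP, avpr2 was highest in spring. It averaged 3.03 ± 0.626 FPKM in spring, 2.32 ± 0.317 FPKM in summer, 2.66 ± 0.469 FPKM in autumn and 2.57 ± 0.252 FPKM in winter. It was higher in spring than in summer (log2 difference 0.27, limma adjusted p = 2.9e-05) and lower in winter than in spring (−0.16, adjusted p = 0.01). The differences of spring minus autumn (0.13, adjusted p = 0.023) and summer minus autumn (−0.14, adjusted p = 0.029) were called but were lost in a model of season plus clock hour (adjusted p of 0.081 and 0.1). Left out in turn, 4 libraries each ended the call of spring minus autumn (spring 6 h replicate 1 and 18 h replicate 2, autumn 2 h replicate 1 and 18 h replicate 1, adjusted p up to 0.074), and 6 each ended that of summer minus autumn (summer 2 h, 14 h and 18 h replicate 1, autumn 2 h, 6 h and 18 h replicate 2, adjusted p up to 0.072). Summer minus winter was not called as deposited (−0.11, adjusted p = 0.057) and was called with median-ratio scaling (−0.15, adjusted p = 0.0093). It was also called with quantile normalization (−0.18, adjusted p = 0.0013) and without the 3 spring libraries that stand apart (adjusted p = 0.041). With single libraries left out it was called in 8 of 48 settings. Relative to the neuron markers it was −0.37 (adjusted p = 4.5e-06), beside a median of −0.217 over all tested genes. The F test over clock hours called avpr2 in spring (adjusted p = 0.023) and in autumn (adjusted p = 0.021, with 23.5% of genes called), and v1ar2 in autumn (adjusted p = 0.04). At 14 h avpr2 had 3.65 and 4.06 FPKM in spring, its highest spring hour, against 1.90 and 1.83 FPKM in autumn, its lowest autumn hour. For avpr2 the direct test that the spring and autumn curves are equal was not called (limma adjusted p = 0.14). Calls of the F test over clock hours were not checked with libraries left out.

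The V1b-like row nft-vtr, of a receptor type that in mammals is found on corticotropes of the pituitary, stood below the filter. It averaged 0.505 ± 0.126 FPKM in spring, 0.592 ± 0.237 FPKM in summer, 0.766 ± 0.299 FPKM in autumn and 0.464 ± 0.147 FPKM in winter. With no filter it was lower in spring than in autumn (log2 difference −0.22, limma adjusted p = 0.00087, with 56.4% of genes called) and higher in autumn than in winter (0.26, adjusted p = 0.00013, with 56% of genes called). It was also lower in summer than in autumn (−0.15, adjusted p = 0.036, with 31% of genes called). It had a daily curve in summer (amplitude 0.21, adjusted p = 0.028, with 8.85% of genes called) and in autumn (0.29, adjusted p = 0.00076, with 9.62% of genes called). All these calls of nft-vtr come from the fit with no filter alone and were not checked with libraries left out. At 2 h the 2 autumn libraries of nft-vtr had 1.14 and 1 FPKM, against 0.41 and 0.44 FPKM at 14 h. The 2 summer libraries had 0.99 and 1.03 FPKM at 2 h, against 0.38 and 0.32 FPKM at 18 h. The quoted 2 h values were above the quoted afternoon and evening values, but in autumn 1 library at 6 h (1.17 FPKM) and 1 at 22 h (1.2 FPKM) were higher still, all at levels where the unknown depth limits precision.

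The V2-like row LOC101170270 averaged 0.211 ± 0.068 FPKM in spring, 0.338 ± 0.0974 FPKM in summer, 0.214 ± 0.085 FPKM in autumn and 0.205 ± 0.0481 FPKM in winter. With no filter it was higher in summer than in winter (log2 difference 0.15, limma adjusted p = 0.0012, with 59.5% of genes called). It was likewise lower in spring than in summer (−0.14, adjusted p = 0.0019, with 58.2% of genes called) and higher in summer than in autumn (0.14, adjusted p = 0.0055, with 31% of genes called). Summer was thus its highest season, from a very low level. Its calls come from the fit with no filter alone and were likewise not checked with libraries left out.

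**Figure D5:**
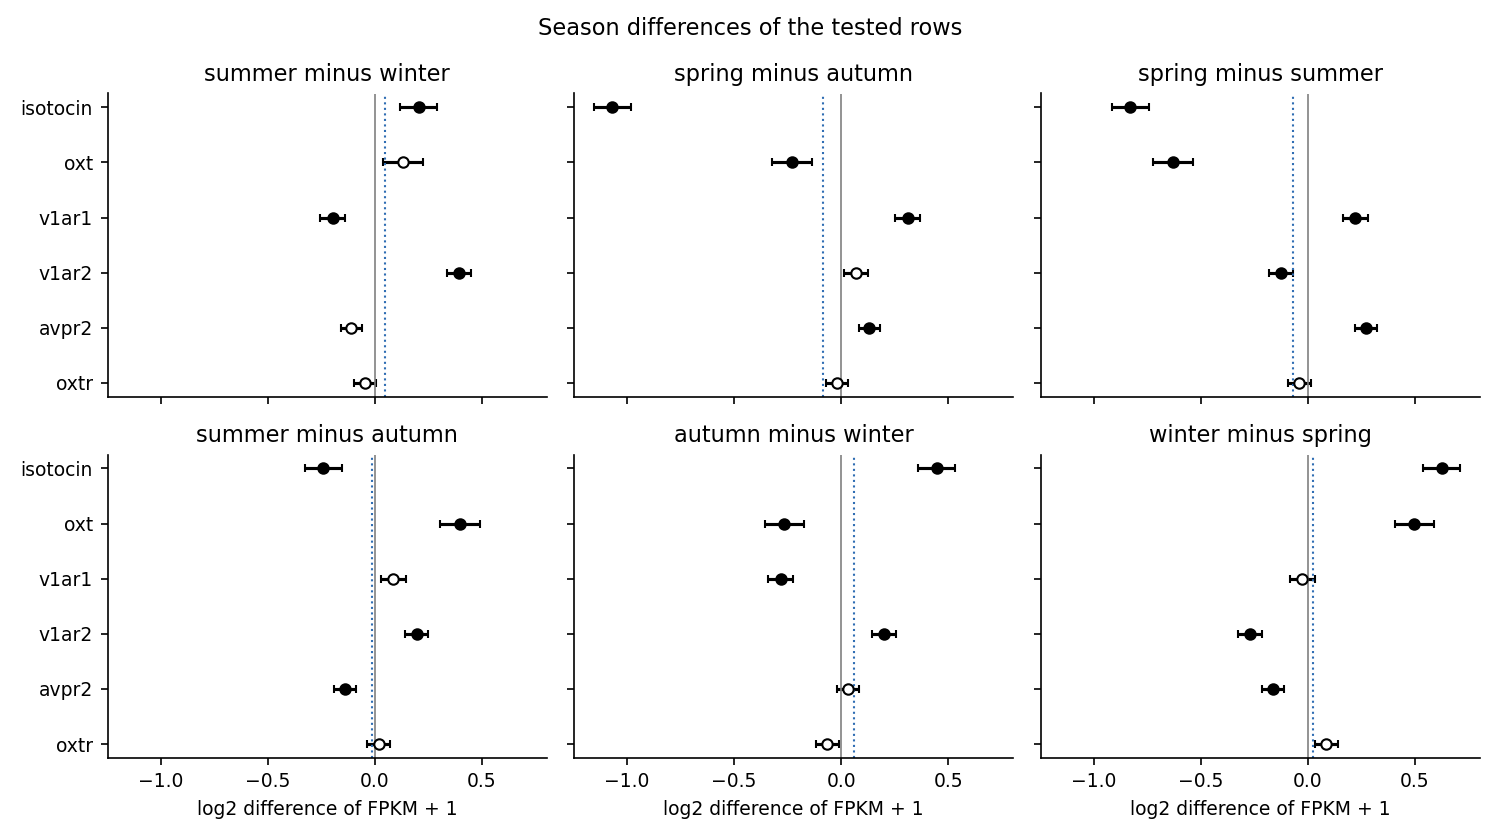
Season differences of the 6 tested rows (x axis, log2 difference of FPKM + 1, the season named first minus the other). Points are estimates with SE bars, filled where the adjusted p is below 0.05, and the dotted line is the median of all tested genes. Isotocin lies farthest from 0 in spring minus autumn, at −1.07.

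Genes that process the precursors and fill secretory granules were all called between summer and winter, 3 of 10 rising and 7 falling in summer, where 42% of all tested genes were higher and 32.9% lower. Their median log2 difference was −0.38 beside 0.05 over all tested genes. In spring against autumn 6 were higher and 4 lower, where 27.3% of all tested genes were higher and 45.1% lower (median 0.20 beside −0.08). The convertase pcsk1, which cuts prohormones, had 82.4 ± 4.82 FPKM in summer and 60.0 ± 2.49 FPKM in winter (log2 difference 0.45, limma adjusted p = 8.6e-16), and 57.2 ± 3.36 FPKM in spring and 74.7 ± 7.21 FPKM in autumn (−0.38, adjusted p = 6.6e-14). Chromogranin B (chgb), a granule protein, took the opposite course, with 47.2 ± 6.68 FPKM in summer and 91.0 ± 8.22 FPKM in winter (−0.94, adjusted p = 4e-14), and 74.5 ± 9.99 FPKM in spring and 48.7 ± 7.74 FPKM in autumn (0.61, adjusted p = 4.8e-10). The aminopeptidase lnpep (LOC101154957), whose mammalian form breaks down oxytocin, had 17.5 ± 1.45 FPKM in summer and 19.0 ± 1.46 FPKM in winter (−0.12, adjusted p = 0.018), and 21.9 ± 1.28 FPKM in spring and 18.6 ± 1.62 FPKM in autumn (0.23, adjusted p = 3.1e-05). Pituitary cells and other neurons also make granule proteins.

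Other hypothalamic peptides were mostly lower in spring than in autumn, as isotocin was. Of 20 tested, 2 rose and 12 fell in spring (median −0.27 beside −0.08 over all tested genes, of which 27.3% rose and 45.1% fell). In summer relative to winter 8 rose and 5 fell (median 0.09 beside 0.05), shares near the 42% and 32.9% of all tested genes. LOC101158162, a somatostatin-2-like row, had 9.11 ± 2.30 FPKM in spring and 16.8 ± 2.92 FPKM in autumn (log2 difference −0.83, limma adjusted p = 6.9e-08). A pro-MCH-like row (LOC101161984), the precursor of a melanin-concentrating hormone, was higher in spring, with 81.3 ± 38.5 FPKM in spring and 54.5 ± 14.4 FPKM in autumn (0.50, adjusted p = 0.00034). The reproductive peptide gene gnrh1 had 5.27 ± 1.91 FPKM in summer and 1.27 ± 0.456 FPKM in winter (1.43, adjusted p = 7.6e-10), and kiss-2, a kisspeptin, had 1.91 ± 0.886 FPKM in summer and 3.96 ± 2.58 FPKM in winter (−0.69, adjusted p = 0.0023).

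Transcription factors listed for neurosecretory neurons were mostly lower in spring than in autumn, as the neuron markers were. The list also holds dlx1, dlx2, lhx6 and nkx2-1, which are not particular to isotocin or vasotocin neurons. Its counts therefore do not describe those neurons alone. Of 16 tested, 1 rose and 13 fell in spring relative to autumn (median −0.34 beside −0.08 over all tested genes, of which 27.3% rose and 45.1% fell). In summer against winter 11 were higher and 2 lower (median 0.30 beside 0.05), beside 42% and 32.9% of all tested genes. LOC101159940, the POU3F2 row of a factor needed for mouse oxytocin and vasopressin neurons, had 8.69 ± 0.894 FPKM in spring and 14.3 ± 1.76 FPKM in autumn (log2 difference −0.66, limma adjusted p = 4.4e-14). sim1, also needed for those neurons in mice, went the other way by a small margin, with 4.38 ± 0.577 FPKM in spring and 3.93 ± 0.440 FPKM in autumn (0.12, adjusted p = 0.04). Orthopedia B (LOC101157220) had 24.2 ± 3.56 FPKM in summer and 33.9 ± 2.72 FPKM in winter (−0.48, adjusted p = 1.4e-08). The homeobox gene rax had 1.89 ± 0.350 FPKM in summer and 0.636 ± 0.182 FPKM in winter (0.82, adjusted p = 7.3e-12).

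Signalling genes downstream of the receptors were called in both directions, as genes at large were. Of 33 tested, 12 rose and 16 fell in summer relative to winter (median −0.05 beside 0.05 over all tested genes, of which 42% rose and 32.9% fell). In spring relative to autumn 17 rose and 12 fell (median 0.07 beside −0.08), beside 27.3% and 45.1% of all tested genes. The phospholipase C beta-1 row (LOC101175365) had 142 ± 8.10 FPKM in summer and 85.8 ± 2.72 FPKM in winter (log2 difference 0.72, limma adjusted p = 2.6e-19). Adenylate cyclase 8-like (LOC101162988) had 1.22 ± 0.192 FPKM in summer and 4.53 ± 0.740 FPKM in winter (−1.31, adjusted p = 7.2e-16). Adenylate cyclase 6 (LOC101169035) had 10.3 ± 1.91 FPKM in spring and 4.67 ± 1.27 FPKM in autumn (1.0, adjusted p = 7.3e-15). The Gq alpha subunit (LOC101168718) had 11.5 ± 0.947 FPKM in spring and 19.4 ± 2.16 FPKM in autumn (−0.71, adjusted p = 5.5e-17). Many cell types of the tissue use these genes, which are not particular to the isotocin and vasotocin receptors.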

How the data were processed

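Poly-A RNA was sequenced from paired ends with strand kept, per the labels' protocols. The authors deposited FPKM values in 1 table (26167 genes, 48 libraries). The submitters' processing notes name Bowtie2 2.2.5 as well as RSEM 1.2.12. Build, annotation, counting settings and depth were not given in the sources used here, so no counting interval can be given and the number of libraries limits the precision. No 2 libraries held identical values.

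Here, log2(FPKM + 1) values of 16622 genes with a mean of at least 1 FPKM were fitted with limma 3.58.1 (R 4.3.3) with an intensity trend. Season differences came from a model of the 24 groups (24 residual degrees of freedom), and daily curves from a cosine of 24 h period per season (36 residual degrees of freedom). Tests were two-sided and adjusted by the Benjamini-Hochberg method over all tested genes, and the code was tested on simulated data. The precursor ratio and correlations used permutation tests (Python 3.11.15, numpy 2.4.6).

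The members and gene lists were chosen with earlier results of these data known. List members were found by symbol or product name, and 27 wrong matches were removed by name. A list gene was named when it was called in summer against winter or spring against autumn and had the highest or lowest fold of its list. For each precursor the 5 genes most like it in profile were named. Gene names come from RefSeq's table, which covered 25080 IDs. Alternatives were a pseudocount of 0.1, no filter, other scalings, array weights, other models and leaving out libraries. The scaling to neuron markers was chosen after seeing the data. The season-by-hour groups have 2 libraries, and replicate numbers follow the order of the samples only.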

Additional observations from a re-analysis of the deposited data

Results flagged for a closer look

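The daily curve of oxt, the precursor row with the RefSeq synonym vasotocin, differed between seasons. The test over all 4 seasons found a largest distance between curves of 0.625 on the log2 scale (limma adjusted p = 0.021). Between summer and winter the distance was 0.547 (adjusted p = 0.023), and between winter and spring it was 0.625 (adjusted p = 0.02). The distance is the amplitude of the difference between the fitted curves. Without the winter library of 14 h replicate 1, the call over all seasons (adjusted p = 0.066) and that of summer and winter (adjusted p = 0.071) were lost, and the call of summer and winter was also lost without the summer library of 14 h replicate 1 (adjusted p = 0.072). Relative to the neuron markers the adjusted p was 0.064 over all seasons and 0.069 for summer and winter. The call of winter and spring held on that scale, with a limma adjusted p of at most 0.034 over the alternatives. Dixon's test for a library far from its group was not applied, since the groups hold 2 or 12 libraries.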

How the results depend on the processing

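No paired analysis was possible because the labels carry no replicate numbers. Over the alternatives that keep all libraries or leave out the 3 spring libraries, 282 season differences of the 6 tested rows kept direction and call, 15 were lost, 11 were gained and 16 changed sign, and all 12 values of the precursor ratio held. Isotocin kept direction and call in spring against autumn (−1.07 to −0.72), spring against summer (−0.83 to −0.45), autumn against winter (0.21 to 0.45) and winter against spring (0.48 to 0.63). The cause of the changes below was not tested.

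With median-ratio scaling, isotocin in summer minus winter lost its call (0.15), and v1ar2 gained a call in spring minus autumn (0.14) and lost it in spring minus summer (−0.063). With the same scaling oxtr turned to 0.047 in spring minus autumn and 0.017 in spring minus summer. There avpr2 gained a call in summer minus winter (−0.15) and turned to −0.021 in autumn minus winter. With quantile normalization, isotocin in summer minus autumn lost its call (−0.14), and v1ar2 gained a call in spring minus autumn (0.15) and lost it in spring minus summer (−0.036). With that normalization oxtr gained calls in summer minus winter and autumn minus winter (−0.12 each). It turned to 0.049 in spring minus autumn and 0.045 in spring minus summer. There avpr2 gained a call in summer minus winter (−0.18) and turned to −0.030 in autumn minus winter. The call of v1ar2 in spring minus summer (−0.12) was also lost with no filter, array weights, season plus clock hour or the 2 seasons alone, and without the 3 spring libraries that stand apart (−0.079). Relative to the neuron markers, isotocin in summer minus winter was −0.059 and oxt −0.13. In spring minus autumn oxt turned to 0.11 and oxtr to 0.32, and v1ar2 was 0.42. In spring minus summer oxtr turned to 0.34 and v1ar2 to 0.25. In summer minus autumn oxtr turned to −0.012, in winter minus spring to −0.025, and in autumn minus winter v1ar2 turned to −0.035 and avpr2 to −0.20, while v1ar2 in summer minus winter was 0.13. That scaling shifts the median of all genes by up to 0.376. Of the genes called in spring minus autumn, 37.7% were higher as deposited, 50.1% with median-ratio scaling, 48.4% with quantile normalization and 83.8% relative to the neuron markers. In summer minus winter the shares were 56.1% as deposited and 24% relative to the neuron markers.

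Counts of genes with a daily curve moved with array weights (223 in spring against 430, 872 in winter against 254, 161 for the summer to autumn difference against 98). Without the 3 spring libraries that stand apart they were 115 in spring, 402 in winter, and 1405, 918 and 210 for the differences of spring to autumn, spring to summer and winter to spring. Relative to the neuron markers they were 208 in spring, 2120 in winter, and 4333, 263, 1552 and 5663 for the differences of summer to winter, summer to autumn, winter to spring and any season.

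With each of the 48 libraries left out in turn, isotocin ranged from 0.16 to 0.25 in summer minus winter and from −0.29 to −0.19 in summer minus autumn, and v1ar2 from −0.16 to −0.090 in spring minus summer. The precursor ratio ranged from 0.17 to 0.29 in spring minus summer. Values that crossed 0 were v1ar1 in winter minus spring (−0.057 to 0.0029, turned without winter 14 h replicate 2) and oxtr in spring minus autumn (−0.043 to 0.0011) and summer minus autumn (−0.012 to 0.050), none of them called. Gene counts ranged from 210 to 526 for curves in spring, 45 to 396 in winter, 57 to 202 for the summer to autumn difference and 345 to 1260 for winter to spring. Unknown depth limits the receptor rows under 1 FPKM most.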
